A study of Mus musculus with 16 samples.

Results

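Transcripts of 5 ion channel genes were followed through 16 mouse heart ventricle libraries. Scn4a and Scn4b encode sodium channel subunits, Clcn1 encodes a chloride channel, and Hcn2 and Hcn4 encode pacemaker channels. The members were taken from the table of normalized counts by gene identifier, so they are 5 of the 22372 protein-coding genes in it, and all 5 were among the 13331 genes with a value of at least 10 in at least 4 libraries. The 5 genes were chosen by name with earlier results of these libraries known, in which constriction and THZ1 had already been compared, and the choice does not state which values it used. The levels in Sham-Veh and TAC-Veh, and every difference that involves TAC-Veh, are therefore given as descriptions without a test. Tests for the 5 genes are given only for the drug in sham hearts and for constriction under the drug.

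Voltage-gated sodium channels open on depolarization and carry the upstroke of the cardiac action potential. A large alpha subunit forms the pore, and smaller beta subunits set its gating and anchoring. ClC-1, the product of Clcn1, is best known from skeletal muscle, where its chloride conductance steadies the resting membrane. HCN channels open on hyperpolarization, pass a mixed sodium and potassium current, and drive pacemaking in the sinoatrial node, while working ventricle normally holds little of them.

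The mice were C57BL/6J, and male per the study's methods. The labels give an age of 10 to 12 weeks, and the study's methods give a narrower range within it for the operated mice. In the TAC groups the aortic arch was narrowed with a suture (transverse aortic constriction, a model of pressure overload), and the sham groups had the operation without the constriction. THZ1, a covalent inhibitor of the transcription kinases Cdk7, Cdk12 and Cdk13, or its DMSO and dextrose vehicle was injected into the peritoneum from postoperative day 1 to day 60. The labels give 10 mg/kg THZ1 in 2 doses per day, and the study's methods give the same daily total as daily injections. Either operation was combined with either injection, so that vehicle was given after sham surgery (Sham-Veh) or constriction (TAC-Veh), and the drug likewise (Sham-THZ1, TAC-THZ1), with 4 libraries in each of the 4 groups. THZ1 was given systemically, so cardiac cells were not its only possible site of action, and each library came from a 10-20 mg piece of ventricle, left ventricle per the study. The libraries held 21.4 to 35.8 M reads on protein-coding genes (median 28.2 M), of which 33.2 to 44.7% were mitochondrial.

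The tissue was checked against marker genes. The ventricular cardiomyocyte list was high in every library. The atrial light chain Myl7 and sarcolipin (Sln) lay between 0 and 6.44 normalized counts, and the pacemaker factor Isl1 was at 0 in all 16 libraries. Other markers of these lists were present. Of 10 atrial markers, 6 reached a value of 10 in at least 4 libraries, as did 9 of 13 pacemaker and conduction markers. The summed atrial list ranged from 2484 to 2877 in Sham-Veh and from 1695 to 2128 in TAC-Veh. For skeletal muscle, where Clcn1 and Scn4a are best known, 11 of 16 markers had a mean under 10 over all 16 libraries, including Myh1, Myh4, Actn3 and Myod1. Of the 16 markers, 7 reached a value of 10 in at least 4 libraries. The summed skeletal list ranged from 954 to 1212 in Sham-Veh and from 861 to 1405 in TAC-Veh, and most of it came from Cacna1s and Mybpc2.

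The annotated starts of the 5 genes differed in sequence, and 4 of them are printed here because they hold a match to a searched motif and so show how unlike the members' starts are. RefSeq promoters on GRCm38.p6 were found for 5 of 5 members, each covering 250 bases before to 50 bases after the start. They read 5′ to 3′ on the gene's strand, and capitals mark the motif matches.
Clcn1 (chr6:42286435-42286734, plus strand): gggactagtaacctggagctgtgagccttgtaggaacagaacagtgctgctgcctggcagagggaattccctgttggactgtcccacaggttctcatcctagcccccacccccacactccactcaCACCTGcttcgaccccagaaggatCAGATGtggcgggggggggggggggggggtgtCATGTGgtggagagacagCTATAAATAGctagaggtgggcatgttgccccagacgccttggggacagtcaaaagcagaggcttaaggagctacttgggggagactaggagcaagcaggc
Scn4b (chr9:45138374-45138673, plus strand): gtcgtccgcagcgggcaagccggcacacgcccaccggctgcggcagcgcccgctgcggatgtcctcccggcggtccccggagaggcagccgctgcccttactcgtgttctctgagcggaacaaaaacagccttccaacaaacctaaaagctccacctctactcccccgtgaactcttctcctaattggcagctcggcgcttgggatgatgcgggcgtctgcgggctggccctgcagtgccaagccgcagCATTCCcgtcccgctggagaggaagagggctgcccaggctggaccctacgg
Hcn2 (chr10:79716384-79716683, plus strand): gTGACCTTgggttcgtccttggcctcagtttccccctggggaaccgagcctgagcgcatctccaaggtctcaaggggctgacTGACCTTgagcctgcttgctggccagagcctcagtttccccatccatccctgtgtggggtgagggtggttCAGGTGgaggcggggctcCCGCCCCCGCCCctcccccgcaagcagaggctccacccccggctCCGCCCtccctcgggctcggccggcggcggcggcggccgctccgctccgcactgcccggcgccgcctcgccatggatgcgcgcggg
Hcn4 (chr9:58822699-58822998, plus strand): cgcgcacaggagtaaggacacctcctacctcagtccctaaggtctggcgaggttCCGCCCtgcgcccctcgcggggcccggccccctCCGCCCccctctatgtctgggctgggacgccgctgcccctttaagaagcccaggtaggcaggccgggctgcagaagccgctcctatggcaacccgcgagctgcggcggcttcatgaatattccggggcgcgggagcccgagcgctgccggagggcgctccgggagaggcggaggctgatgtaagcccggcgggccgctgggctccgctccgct
The motifs, searched on both strands, were the E-box CANNTG, the TATA element TATAAA, the MCAT element CATTCC, the GATA element AGATAA, the GC box GGGCGG, the nuclear receptor element AAGGTCA, and by name the MEF2 site, the CArG box and RE1.

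The Clcn1 window held 3 E-boxes, at -125, -101 and -69 from the start, and a MEF2 site at -51 whose letters include the TATAAA at -50. E-boxes were found in 72.3% of the 32544 promoters of this length, TATAAA in 13.6% and a MEF2 site in 3.16%. The Hcn2 window held 3 GC boxes, an E-box and 2 AAGGTCA elements on the other strand, at -249 and -168, an element present in 4.71% of promoters. Hcn4 held 2 GC boxes, a motif of 35.9% of promoters, and Scn4b a single CATTCC at -1, a motif of 14.6%. The Scn4a window (not printed) held none of the searched motifs. GC content was 59.0% for Clcn1, 63.0% for Scn4a, 66.3% for Scn4b, 71.7% for Hcn4 and 72.3% for Hcn2, against a median of 53.0%. Clcn1 and Scn4a had 3 and 4 CpG dinucleotides, while Scn4b and Hcn2 had 26 each and Hcn4 had 31. The RefSeq and GENCODE starts were the same base for Clcn1 and Hcn2, whereas for Scn4a the RefSeq start lay 3898 bases further into the gene. The same offset was 187 bases for Scn4b and -563 for Hcn4, where a negative value lies before the GENCODE start. The Hcn4 and Scn4a windows therefore do not reach the GENCODE start. A match is a run of letters and not evidence of binding.

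Scn4a (ENSMUSG00000001027, mm9 chromosome 11, 106179906 to 106214602, minus strand) encodes Nav1.4, the pore-forming alpha subunit known as the skeletal muscle sodium channel. Its normalized counts were 803, 805, 659.6 and 792 in Sham-Veh and 884, 859.9, 904 and 711 in Sham-THZ1. In TAC-Veh they were 109, 166, 372 and 432, and in TAC-THZ1 218, 446, 265 and 460.2. Both TAC groups lay below both sham groups without overlap and overlapped each other. The mean was 765 ± 70.3 in Sham-Veh and 269.6 ± 156 in TAC-Veh (SD, n = 4), a log2 difference of -1.71 (SE 0.34). On the log2 scale TAC-THZ1 was 0.50 (SE 0.34) above TAC-Veh.

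Scn4b (ENSMUSG00000046480, mm9 chromosome 9, 44946520 to 44962235, plus strand) encodes a beta subunit that modulates the gating of sodium channel alpha subunits. The Sham-Veh libraries held 1777, 1239, 1279 and 1356 normalized counts and the Sham-THZ1 libraries 1817, 1580, 1640 and 1345. The TAC-Veh libraries held 107, 335, 807 and 974, and the TAC-THZ1 libraries 719.7, 889.9, 592 and 1053. All TAC libraries lay below all sham libraries, and the TAC-Veh values spread more widely than those of any other group. The log2 difference of TAC-Veh from Sham-Veh was -1.77 (SE 0.46), and it was -1.12 without TAC-Veh replicate 1, the lowest library. TAC-THZ1 exceeded TAC-Veh by 0.95 (SE 0.46) on the log2 scale, and by 0.31 without that replicate and 0.55 by DESeq2.

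Clcn1 (ENSMUSG00000029862, mm9 chromosome 6, 42236684 to 42265755, plus strand) had the lowest TAC-Veh values relative to sham of the 5 genes. In Sham-Veh the normalized counts were 268, 337, 381 and 296, and in Sham-THZ1 250.5, 249, 272 and 228. In TAC-Veh they were 9.41, 22.2, 69.3 and 57.9, the first of them resting on 8 reads. In TAC-THZ1 they were 103, 220.2, 130.2 and 161, between the other groups and overlapping none of them. The log2 difference was -3.33 (SE 0.42) for TAC-Veh against Sham-Veh and 2.23 (SE 0.42) for TAC-THZ1 against TAC-Veh. Without TAC-Veh replicate 1 these were -2.80 and 1.70. An exon of Clcn1 overlaps an exon of Fam131b on the other strand, whose mean was 38.1 normalized counts, and reads were counted by strand.

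Hcn2 (ENSMUSG00000020331, mm9 chromosome 10, 79179379 to 79198853, plus strand) encodes a fast-activating HCN channel of heart and brain. Its Sham-Veh values were 402, 381, 429 and 449 and its Sham-THZ1 values 408, 356, 465 and 393. The TAC-Veh values were 172, 194, 316 and 307, and the TAC-THZ1 values 317, 262, 243 and 274. It showed the smallest difference of the members, -0.80 (SE 0.16) on the log2 scale between TAC-Veh and Sham-Veh. TAC-THZ1 and TAC-Veh overlapped, with a log2 difference of 0.19 (SE 0.16).

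Hcn4 (ENSMUSG00000032338, mm9 chromosome 9, 58671319 to 58708762, plus strand) encodes the main HCN channel of the sinoatrial node. It was counted at 91.2, 85.8, 92.8 and 138 in Sham-Veh and at 123, 115, 138 and 111 in Sham-THZ1. TAC-Veh held 21.2, 15.0, 36.7 and 53.7, and TAC-THZ1 31.7, 92.9, 44.8 and 78.2. Every TAC-Veh library was below every sham library, while TAC-THZ1 replicate 2 lay within the Sham-Veh range. TAC-Veh differed from Sham-Veh by -1.79 (SE 0.35) and TAC-THZ1 from TAC-Veh by 0.98 (SE 0.35) on the log2 scale. The pieces were bulk tissue, so fewer cells of a type and less RNA per cell cannot be told apart for any member.

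**Figure D1:**
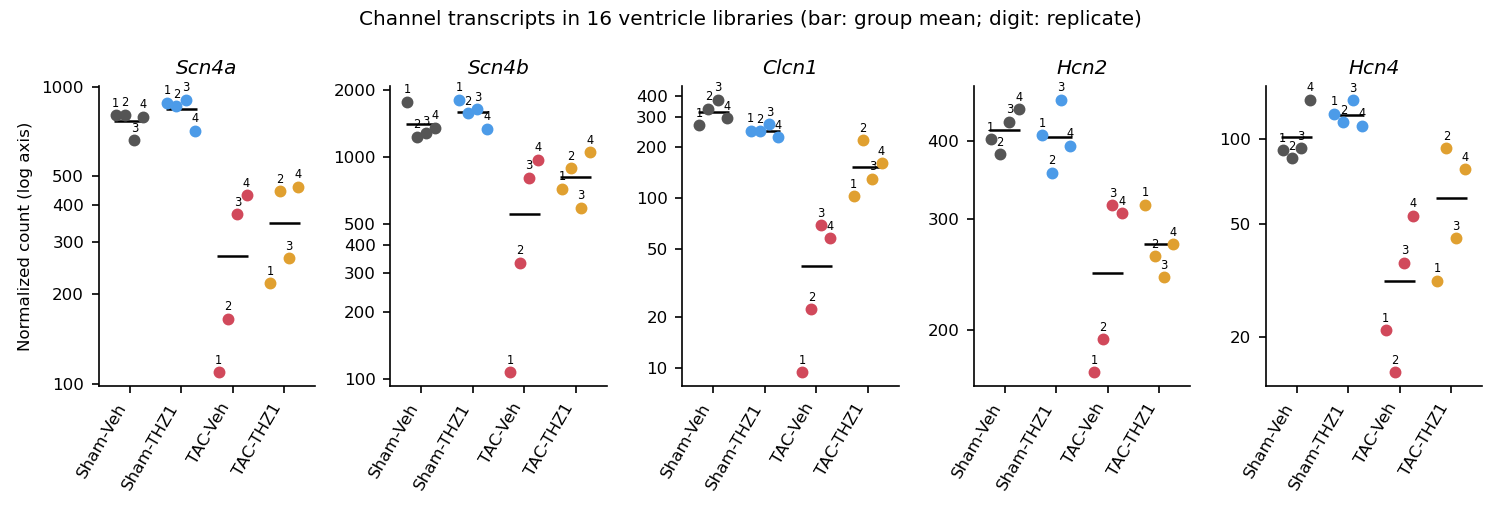
Normalized counts (log axis) of the 5 channel transcripts in the 16 libraries, 1 point per library with its replicate number, with bars at group means. TAC-Veh replicates 1 and 2 are the lowest pair of their group for every gene, and Clcn1 ranges from 9.41 to 69.3 there against 268 to 381 in Sham-Veh.

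Between TAC-Veh and Sham-Veh, 5 of 5 members were lower with no overlap, a pattern seen for 19.1% of the genes tested (18.2% were higher without overlap). Between TAC-THZ1 and TAC-Veh, which shares the TAC-Veh libraries with the first comparison, Clcn1 alone was higher without overlap (9.53% of all genes). Nothing is read from these counts, since the members were chosen with these comparisons known. The drug difference in TAC minus that in sham was 2.58 (SE 0.60) for Clcn1, 0.77 (SE 0.65) for Scn4b, 0.71 (SE 0.49) for Hcn4, 0.37 (SE 0.47) for Scn4a and 0.23 (SE 0.23) for Hcn2 on the log2 scale. These values moved with single libraries. Scn4b was at 0.13 without TAC-Veh replicate 1 and 1.19 without replicate 4, Scn4a at 0.011 and 0.67, and Hcn2 at 0.075 and 0.35, while Hcn4 was at 0.42 without TAC-Veh replicate 2. For TAC-THZ1 minus TAC-Veh the same leave-outs of replicates 1 and 4 gave 0.14 and 0.80 for Scn4a and 0.037 and 0.32 for Hcn2.

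In sham hearts THZ1 left no member past the threshold, an adjusted p under 0.05. The drug difference had adjusted p-values from limma of 0.952 for Clcn1, 0.986 for Scn4a and Scn4b, 0.991 for Hcn2 and 0.954 for Hcn4. Across all genes, 0.0225% were called higher and 0.045% lower. None of the 5 had an unadjusted p under 0.05, and edgeR and DESeq2 on the recovered reads called 0 of them. The 95% intervals of the log2 differences bounded the effect only loosely. They ran from -1.24 to 0.54 for Clcn1, from -0.57 to 0.84 for Scn4a, from -0.79 to 1.16 for Scn4b, from -0.38 to 0.31 for Hcn2 and from -0.45 to 1.005 for Hcn4. The 2 sham groups overlapped for each member, where 6.29% of all genes were higher and 5.05% lower without overlap. These tests share the Sham-Veh libraries with the comparison in which the members were known.

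Under THZ1, 3 of the 5 genes fell with constriction. TAC-THZ1 against Sham-THZ1 shares no library with TAC-Veh against Sham-Veh, although limma takes the spread from all 16 libraries. It does share the TAC-THZ1 libraries with TAC-THZ1 against TAC-Veh. Both of its groups also enter the drug difference in TAC minus that in sham. Those results may have been known when the members were chosen, so these tests are not independent of the choice. Scn4a fell by 1.34 on the log2 scale (SE 0.34, adjusted p = 0.0102), Hcn2 by 0.56 (SE 0.16, adjusted p = 0.0210) and Hcn4 by 1.08 (SE 0.35, adjusted p = 0.0320). For Scn4b the difference was -0.996 (SE 0.46, adjusted p = 0.123) and for Clcn1 -0.75 (SE 0.42, adjusted p = 0.201), neither past the threshold. The background was 12.8% of genes called lower. All 5 members were lower in every TAC-THZ1 library than in any Sham-THZ1 library, against 17.7% of all genes.

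These calls depended on the spread taken from other libraries and on single libraries of the compared groups. With the 2 groups fitted alone, Scn4b (adjusted p = 0.000952) and Clcn1 (adjusted p = 0.0117) also passed, and without TAC-Veh replicate 1 they passed at 0.00819 and 0.0473. Hcn4 missed the threshold when any Sham-THZ1 library or TAC-THZ1 replicate 1 or 3 was left out, with adjusted p-values from 0.0582 to 0.111. Hcn2 missed it without Sham-THZ1 replicate 3 (0.0651) or TAC-THZ1 replicate 3 (0.0573). Scn4a kept an adjusted p between 0.0016 and 0.0397 in all 16 such fits.

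**Figure D2:**
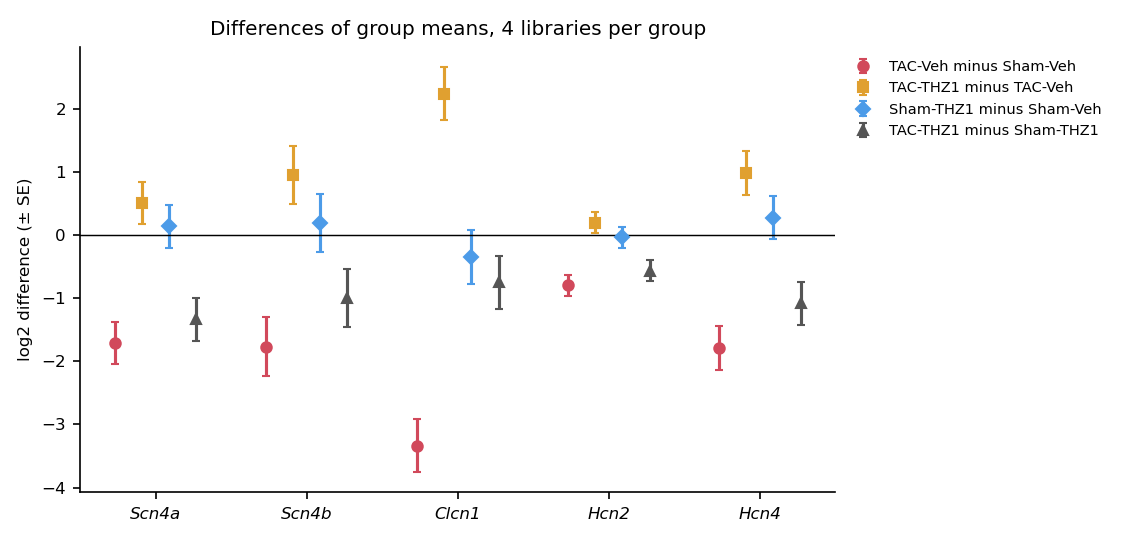
Log2 differences of group means (points) with SE (bars) for the 5 genes in 4 comparisons, 4 libraries per group. The TAC-Veh minus Sham-Veh values run from -3.33 for Clcn1 to -0.80 for Hcn2, those of Sham-THZ1 minus Sham-Veh from -0.35 to 0.28.

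The members varied together among the TAC-Veh libraries. Replicates 1 and 2 had the lowest values of each of the 5 genes and replicates 3 and 4 the highest. As log2 deviations from the group mean, Scn4b stood at -1.93, -0.29, 0.98 and 1.25, Clcn1 at -1.60, -0.45, 1.15 and 0.90, and Scn4a at -1.08, -0.48, 0.67 and 0.89. Hcn4 stood at -0.40, -0.87, 0.37 and 0.90 and Hcn2 at -0.47, -0.30, 0.41 and 0.36. Deviations ran from -0.24 to 0.20 in Sham-THZ1, from -0.24 to 0.46 in Sham-Veh and from -0.82 to 0.70 in TAC-THZ1.

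The stress peptide Nppa had the opposite order in these libraries, at 199788, 112703, 54193 and 49207 normalized counts. Nppb followed with 27977, 21920, 15636 and 13076. Myh6, the adult alpha myosin heavy chain, was at 176848, 162375, 245735 and 317577, lower in the libraries where the channels were lower. In TAC-THZ1, Clcn1, Scn4a, Scn4b and Hcn4 were higher in replicates 2 and 4 than in 1 and 3. Nppa stood at 12865 and 19261 in the former pair against 35178 and 42633 in the latter. Hcn2 did not follow this order, with its highest value in replicate 1, and Nppb was higher in replicate 4 (11292) than in replicate 1 (10630). Whether these markers play a part in the channel values was not tested.

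**Figure D3:**
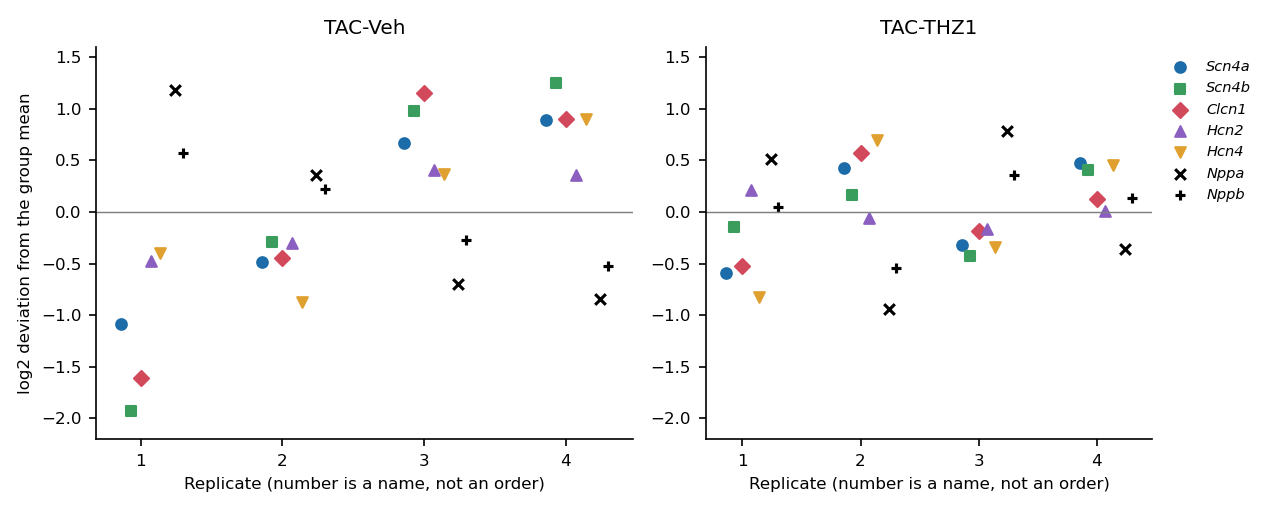
Log2 deviations from the group mean of the 5 channel genes and of Nppa and Nppb in the 4 TAC-Veh and 4 TAC-THZ1 libraries. In TAC-Veh the channels lie below 0 in replicates 1 and 2 and above 0 in 3 and 4, with Nppa and Nppb on the other side.

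Over the 16 libraries the 10 pairs of members correlated with Pearson's r of 0.837 to 0.940 on log2 values, which includes the group differences. With group means removed, r was highest for Clcn1 with Scn4a (0.913), Scn4a with Scn4b (0.910) and Clcn1 with Scn4b (0.898), and lowest for Hcn2 with Hcn4 (0.527). Such values were not rare among the 10313 other genes with a mean of at least 100. The 99th percentile of their r with a member ran from 0.891 (Hcn2) to 0.950 (Clcn1) on log2 values. With group means removed it ran from 0.795 (Hcn2) to 0.876 (Clcn1). The points share libraries and depth, and the TAC-Veh libraries carry most of the spread.

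In the comparisons with TAC-Veh, cardiomyocyte markers moved in the same direction as the channels. Of 10 markers, 6 fell and none rose in TAC-Veh against Sham-Veh, with a median log2 difference of -0.65. Of all genes, 23.6% fell and 21.4% rose. The summed level of the markers ranged from 884199 to 1309110 in TAC-Veh against 1747831 to 1897286 in Sham-Veh. None of the 10 was at 0 in any group. In TAC-THZ1 against TAC-Veh, 7 of them rose, with a median of 0.47, beside 15.1% of all genes. In TAC-THZ1 against Sham-THZ1, 3 of the 10 fell and 0 rose, beside 12.8% and 11.4% of all genes. The median of the markers was -0.02 there, while the members differed by -1.34 (Scn4a) to -0.56 (Hcn2). Fibroblast markers moved the other way, with 5 of 7 higher in TAC-Veh and a summed level of 61207 to 125784 against 22517 to 25189. With THZ1 in TAC, 5 of 7 were lower, beside 14.2% of all genes. The part of cell composition in the channel values was not tested. Among the 10 markers Atp2a2 fell furthest in TAC-Veh, by 1.30 on the log2 scale.

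For Hcn4, a gene of the conduction system, the pacemaker and conduction list gave no common direction. Of 13 markers, 9 were tested, with 3 higher and 3 lower in TAC-Veh, beside 21.4% and 23.6% of all genes. Tbx3, a repressor that marks conduction tissue, fell by 0.71 (adjusted p = 0.00323), Cntn2 by 1.38 (adjusted p = 0.0194) and the T-type calcium channel Cacna1g by 0.54 (adjusted p = 0.0164). Shox2 rose by 0.72 (adjusted p = 0.0180), Smoc2 by 0.46 and Gjc1 by 0.19. The summed list ranged from 3550 to 3787 in Sham-Veh and from 3865 to 4593 in TAC-Veh, most of it from Smoc2, and Isl1 was at 0 throughout. Their part in the Hcn4 values was not tested.

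Levels of different genes can be set side by side per kilobase of exon. Per kilobase, Scn4a was at 108.6 ± 9.99 normalized counts in Sham-Veh and 38.3 ± 22.2 in TAC-Veh, and its relative Scn7a at 128.5 ± 6.22 and 158 ± 16.9 (SD, n = 4). The sham levels of these genes were close, and in TAC-Veh every Scn7a value (133.9 to 173) lay above every Scn4a value (15.5 to 61.3).

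The other alpha subunits named here gave no common direction. Scn10a, which encodes Nav1.8, fell in TAC-Veh by 2.45 (SE 0.30, adjusted p = 9.3e-06), from 35.0 to 62.8 normalized counts to 3.58 to 10.9, and rose with THZ1 in TAC by 1.5 (adjusted p = 0.00173). Scn7a, a sodium-sensing relative, rose in TAC-Veh by 0.29 (adjusted p = 0.0194) and fell with THZ1 by 0.52 (adjusted p = 0.00101). Scn2a1 rose in TAC-Veh by 0.90 (adjusted p = 0.0104), at a level of 9.19 to 26.5 normalized counts in the 2 vehicle groups. Scn3a did not pass in any comparison.

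Among the beta subunits, Scn4b was at 285.9 ± 50.1 normalized counts per kilobase in Sham-Veh and 112.5 ± 81.7 in TAC-Veh (SD, n = 4). Scn3b was the lower of the pair in every library, at 4.88 ± 0.30 and 9.84 ± 2.32 per kilobase. On the log2 scale Scn3b rose in TAC-Veh by 0.95 (SE 0.23, adjusted p = 0.00314) and fell with THZ1 in TAC by 0.67 (adjusted p = 0.0362). Scn2b was too low to test.

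**Figure D4:**
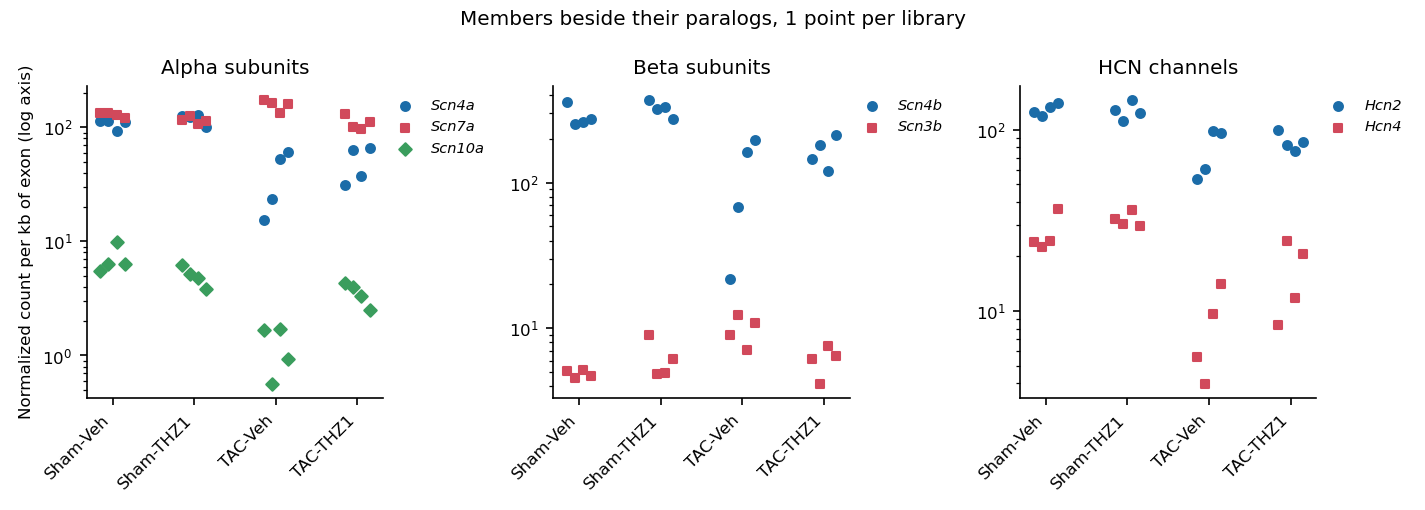
Normalized counts per kb of exon (log axis) for sodium channel alpha subunits, beta subunits and HCN channels in the 4 groups, 1 point per library. Scn4b lies above Scn3b and Hcn2 above Hcn4 in each library, and in TAC-Veh Scn4a (15.5 to 61.3) lies below Scn7a (133.9 to 173).

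Of the HCN channels, Hcn2 was higher per kilobase than Hcn4 in every library. Hcn2 was at 130.0 ± 9.36 normalized counts per kilobase in Sham-Veh and 77.3 ± 23.4 in TAC-Veh, and Hcn4 at 26.8 ± 6.36 and 8.33 ± 4.55 (SD, n = 4). With the drug, Hcn2 was at 126.9 ± 14.1 in sham and 85.8 ± 9.74 in constricted hearts, and Hcn4 at 32.0 ± 3.06 and 16.3 ± 7.5. Hcn3 was too low to test. Of 5 HCN partner genes 4 were tested and only Mrvi1 was called, lower in TAC-Veh by 0.81 (adjusted p = 0.00194), beside 23.6% of all genes.

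Per kilobase, Clcn1 was at 59.1 ± 9.05 normalized counts in Sham-Veh, 7.32 ± 5.25 in TAC-Veh and 28.3 ± 9.30 in TAC-THZ1, and its relative Clcn3 at 72.2 ± 6.11, 46.0 ± 1.09 and 56.4 ± 6.06 (SD, n = 4). Of the 10 other genes on the ClC list, 8 were tested and 2 fell in TAC-Veh, beside 23.6% of all genes. Clcn3, an endosomal chloride-proton exchanger, fell by 0.65 (SE 0.08, adjusted p = 1.07e-05), rose with THZ1 in TAC by 0.29 (adjusted p = 0.0129) and was lower by 0.26 than sham under the drug (adjusted p = 0.0284). Clcn4-2 fell by 0.23 (adjusted p = 0.00462). Clcn2, Clcn5, Clcn6, Clcn7 and Ostm1 did not pass with constriction, with log2 differences from -0.25 to 0.26.

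Of 70 identifiers of other channel and partner genes (1 gene has 2 identifiers), 51 were tested. With constriction 12 rose and 14 fell (21.4% and 23.6% of all genes), and the median log2 difference was -0.02, against -0.00 for all genes. With THZ1 in TAC 6 rose and 11 fell (15.1% and 14.2%), and in sham 0 of 51 passed (limma), with 5 at an unadjusted p under 0.05 and 0 called by edgeR or DESeq2. Under the drug 3 rose and 10 fell with constriction (11.4% and 12.8%), and by the interaction 4 were higher and 4 lower (4.4% and 5.62%).

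**Figure D5:**
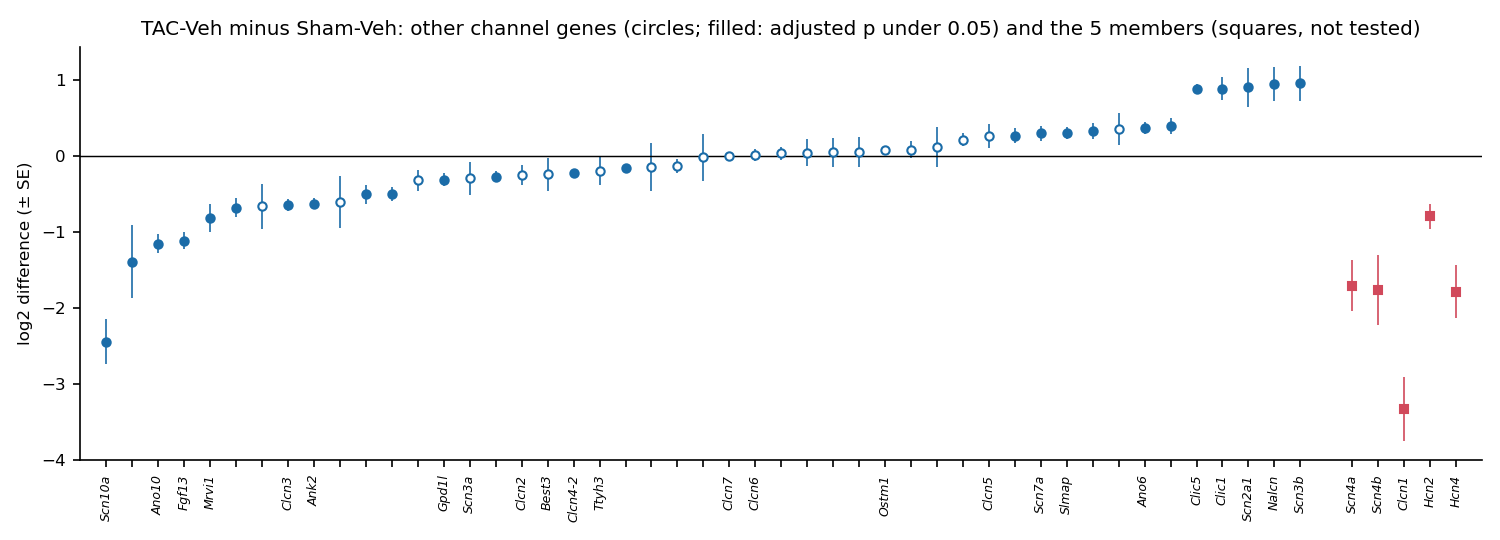
Log2 differences of TAC-Veh minus Sham-Veh with SE for 47 of the 51 other channel and partner genes tested (circles, filled where the adjusted p was under 0.05, labelled where named in the text) and the 5 members (squares, given without a test). The plotted other genes run from -2.45 for Scn10a to 0.95 for Scn3b, and the members from -3.33 to -0.80.

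Among the partners, Fgf13, a factor that binds the sodium channel tail, fell in TAC-Veh by 1.12 (SE 0.11, adjusted p = 1.26e-06) and rose with THZ1 in TAC by 0.64 (adjusted p = 0.000595). Ank2, the membrane adaptor ankyrin-B, fell by 0.63 (adjusted p = 3.69e-06) and rose with THZ1 by 0.21 (adjusted p = 0.0332). Gpd1l rose with THZ1 by 0.28 (adjusted p = 0.0176). Slmap was higher in TAC-THZ1 than in Sham-THZ1 by 0.24 (adjusted p = 0.0368). Of the 13 sodium channel partners, 12 were tested, and 3 rose and 6 fell in TAC-Veh, beside 21.4% and 23.6% of all genes.

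Of 17 other chloride channel genes tested, 4 rose and 4 fell with constriction, beside 21.4% and 23.6% of all genes. Clic5 rose in TAC-Veh by 0.88 (SE 0.06, adjusted p = 8.77e-08) and fell with THZ1 by 0.40 (adjusted p = 0.000331), staying above sham under the drug by 0.43 (adjusted p = 0.000605). Clic1 rose by 0.88 (adjusted p = 0.000289). Ano6, a calcium-activated scramblase, rose by 0.36 (adjusted p = 0.00170) and fell with THZ1 by 0.57 (adjusted p = 0.000171). Ano10 fell by 1.16 (adjusted p = 4.26e-06) and was lower under the drug as well, by 0.996 (adjusted p = 0.000309). Under the drug Best3 fell by 1.30 (adjusted p = 0.00117) and Ttyh3 by 0.76 (adjusted p = 0.00965). Nalcn, the sodium leak channel, fell with THZ1 in TAC by 0.73 (adjusted p = 0.0206) after rising by 0.94 with constriction.

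The genes whose patterns were most like each member were sought among 10313 genes with a mean of at least 100, by Pearson's r over the log2 values of the 16 libraries, given as a description. For Clcn1 they were Kcnj5 (0.993), Crhr2 (0.992) and Plxnb1 (0.989), and after removal of the group means Crhr2 (0.971), Kcnj5 (0.965) and Reep1 (0.962). Kcnj5 encodes an atrial-type inward rectifier potassium channel subunit. For Scn4a they were the myosin chaperone Unc45b (0.978), Slc40a1 (0.967) and Usp19 (0.964), and within groups Afg3l1 (0.942), Klhl34 (0.941) and Mmab (0.939).

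For Scn4b the leading genes were Inppl1 (0.967), Ky (0.965) and Rps6ka2 (0.963), and within groups Cables2 (0.956), Klhl34 (0.952) and Arfgef1 (0.951), so that Klhl34 was shared with Scn4a. For Hcn4 they were Ogdh (0.976), Rnf123 (0.976) and Pmpca (0.972), and within groups Cox15 (0.943), Rnf123 (0.938) and Ogdh (0.927). Ogdh and Cox15 encode mitochondrial proteins. For Hcn2 they were R3hdm1 (0.944), Yy1 (0.941) and Pard3 (0.940), and within groups Slc26a10 (0.931), Dvl1 (0.902) and Slc25a38 (0.900). The libraries share group and depth, so a high r does not single these genes out as linked.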

How the data were processed

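The members and all gene lists were chosen with earlier results of these data known. The authors aligned single-end reads of stranded mRNA libraries to mm9 with TopHat2 2.1.1, counted them per GENCODE gene with HTSeq and divided the counts by DESeq2 size factors. The deposited values are these normalized counts (a signal, not raw counts), and dividing each column by its smallest step gave whole reads for 100.0% of values (tolerance 0.01 reads). Genes needed a value of at least 10 in at least 4 libraries. The main test was limma 3.58.1 (R 4.3.3) on log2(value + 1), with 1 mean per group over 16 libraries and Benjamini-Hochberg adjustment over 13331 genes. Adding 1 to each value shrinks the fold change of low genes, but this does not mean that the members' values here are too small. A call is an adjusted p under 0.05. edgeR 4.0.16 and DESeq2 1.42.0 on the recovered reads were alternatives, beside other pseudocounts, filters, scalings, variance models and single libraries left out. For TAC-Veh minus Sham-Veh every member had a smaller log2 difference by DESeq2 than by limma. The DESeq2 values were -3.01 for Clcn1 (limma -3.33), -1.50 for Scn4a (-1.71) and -1.34 for Scn4b (-1.77). They were -1.68 for Hcn4 (-1.79) and -0.75 for Hcn2 (-0.80). The test scripts were tested on simulated data. The labels do not name the animal behind each library, so p-values measure the spread between libraries.

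Named were the 5 members, their paralogs that passed the filter (some are not reported here, though the counts of calls include them), from the other channel lists up to 3 genes per direction and comparison with the smallest adjusted p, and the 3 genes most like each member. Mrvi1 and the single marker genes were named after their values were seen. Gene coordinates are mm9 (GENCODE) and promoter coordinates GRCm38.p6 (RefSeq), each printed in its own build. To compare the starts, each promoter sequence was placed in the mm9 genome by an exact match.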

Additional observations from a re-analysis of the deposited data

Results flagged for a closer look

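In groups of 4 libraries a value was marked where its gap to the nearest other exceeded Dixon's critical share of the group's range. Chance marks about 1 in 20 groups, and 2 of the 20 member groups were marked. Scn4a in Sham-Veh had a lowest value of 659.6 normalized counts against 792 to 805 in the other libraries. Hcn4 in Sham-Veh had a highest value of 138 against 85.8 to 92.8.

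Among the named paralogs and partners the marked values were 1500 normalized counts for Gpd1l in TAC-THZ1, 104 for Clcn2 in Sham-THZ1, 1854 for Clcn4-2 in TAC-Veh and 251 for Ttyh3 in TAC-THZ1. Ostm1 was marked at 863 in Sham-THZ1 and at 937 in TAC-THZ1.

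By the interaction term (limma, adjusted over all genes), 7 other channel and partner genes reported here responded differently to the drug in constricted and sham hearts, where 4.4% of all genes were called higher and 5.62% lower. On the log2 scale the drug difference in TAC exceeded that in sham by 1.95 for Scn10a (SE 0.42, adjusted p = 0.0109), by 0.76 for Fgf13 (adjusted p = 0.00774), by 0.45 for Ank2 (adjusted p = 0.0111) and by 0.39 for Clcn3 (adjusted p = 0.0383). The interaction was -0.64 for Ano6 (adjusted p = 0.00404), -0.45 for Clic5 (adjusted p = 0.00707) and -1.05 for Best3 (adjusted p = 0.0386). The Sham-THZ1, Sham-Veh and TAC-Veh libraries behind these values are those of the comparisons above.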

How the results depend on the processing

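Of 993 values recomputed under 14 other settings and 16 fits without a library, 933 held. Values with a test held if they kept their direction and side of the threshold, and counts of genes if they stayed within 1.5 times. Values without a test held if they kept their sign and moved by less than the replicate spread. Leaving out 1 of 4 libraries cannot move a group mean by more than that spread, so in those fits only a change of sign could fail. The Scn4b interaction counted as held though it went from 0.77 to 0.13 without TAC-Veh replicate 1. For values without a test, the leave-outs in this count therefore do not show stability. With the compared groups fitted alone, Clcn1 (-0.75, adjusted p = 0.0117) and Scn4b (-0.996, adjusted p = 0.000952) passed in TAC-THZ1 minus Sham-THZ1, and with array weights they did too (-0.71 and -0.90, adjusted p = 0.0255 and 0.00726). The sign of Hcn2 in sham turned without Sham-Veh replicate 4 (0.00047) and Sham-THZ1 replicate 2 (0.022). With libraries left out in turn, TAC-THZ1 minus Sham-THZ1 ranged from -0.94 to -0.58 for Clcn1, from -1.13 to -0.85 for Scn4b, from -0.63 to -0.50 for Hcn2 and from -1.32 to -0.81 for Hcn4, and Hcn2 in sham from -0.11 to 0.02.

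Counts of other channel genes moved more. At an adjusted p under 0.01, 2 rose and 4 fell with THZ1 in TAC, 3 fell in TAC-THZ1 minus Sham-THZ1, and the interaction had 1 higher and 2 lower. At a log2 difference of at least 1, constriction had 1 higher and 4 lower, THZ1 in TAC 1 and 1, TAC-THZ1 minus Sham-THZ1 0 and 1, and the interaction 1 and 1. Genes lower with THZ1 in TAC numbered 6 with no filter and 7 with a mean of at least 50. With groups alone, and also with array weights, THZ1 gave 2 higher and 4 lower in TAC and 3 higher and 2 lower in sham, and TAC-THZ1 minus Sham-THZ1 gave 5 higher, with 16 lower under array weights. Without single libraries, THZ1 in TAC ranged from 3 to 9 higher and 6 to 14 lower, TAC-THZ1 minus Sham-THZ1 from 2 to 5 higher and 4 to 15 lower, and the interaction from 3 to 8 lower. The 11 genes lower with THZ1 in TAC became 7 without Sham-Veh replicate 2 or 4, Sham-THZ1 replicate 1, 3 or 4, or TAC-Veh replicate 2 or 4, and 6 without TAC-THZ1 replicate 1 or 2, and the 6 higher became 3 without TAC-Veh replicate 2. The 10 lower in TAC-THZ1 minus Sham-THZ1 became 6 without Sham-THZ1 replicate 1, 5 without Sham-THZ1 replicate 3 or TAC-THZ1 replicate 3, and 4 without Sham-THZ1 replicate 4 or TAC-THZ1 replicate 1, and the 3 higher became 5 without TAC-Veh replicate 1. The 4 lower by the interaction became 8 without TAC-Veh replicate 3. The cause of these shifts was not tested.

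Replicate numbers are shared by the groups without a stated link. Deviations of same-numbered libraries correlated over 0.1 in 2 of 24 pairs (median 0.0215), so the numbers were not taken as pairs. With the replicate number as a block, 7 other channel genes were lower with THZ1 in TAC in place of 11, no tested call of a member changed, and Scn4a in TAC-THZ1 minus Sham-THZ1 had an adjusted p of 0.0109. Upper quartile or quantile scaling moved the median of all genes by less than 0.1. Depth limits Clcn1 in TAC-Veh, where replicate 1 held 8 reads.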
